A study of Mus musculus with 12 samples.

Results

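The genes described here are 7 genes of the machinery that reads acetylated chromatin and starts or releases RNA polymerase II: Brd2 and Brd3 (BET proteins), Med1 and Med12 (Mediator subunits) and the kinases Cdk7, Cdk8 and Cdk9. They were taken by name from the gene tables of all 12 libraries, which share 23301 gene names, and each of the 7 names stood in exactly 1 row of every table. RNA-seq of poly-A RNA was compared between 3 Normal and 3 Tumor libraries, and between 3 DMSO and 3 C646 libraries. Normal was mammary gland of 12-week-old FVB wild type females, with the abdominal and inguinal glands of 3 mice pooled for each replicate. Tumor was a thoracic-gland tumor of 1 untreated female MMTV-PyVT mouse of 12 weeks for each replicate, heterozygous and also of the FVB strain. In MMTV-PyVT mice the promoter of the mouse mammary tumor virus drives the polyoma middle T oncogene, mainly in mammary epithelium. DMSO and C646 were mammary tumors of 12-week-old female MMTV-PyVT mice, 1 mouse for each replicate. The mice were given injections of the solvent DMSO or of C646, an inhibitor of the histone acetyltransferase p300. The labels carry 1 mg/kg for both groups, although the DMSO mice were given the solvent. Genotype, gland position and the number of mice in a replicate change together between Normal and Tumor and cannot be told apart.

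BET proteins carry paired bromodomains that bind acetylated lysines of histones, and they bring elongation factors to promoters and enhancers. Mediator is a large complex that passes signals from enhancer-bound factors to RNA polymerase II, and its detachable kinase module (CDK8 or CDK19, cyclin C, MED12 and MED13) can hold it apart from the polymerase. CDK7, within the general factor TFIIH, phosphorylates the tail of the polymerase at the start of transcription, and CDK9, with cyclin T, forms P-TEFb, which releases the paused polymerase into elongation. These factors are used in every tissue and are studied in mammary cancer because MED1 is a coactivator of the estrogen receptor and because inhibitors of the BET proteins and of these kinases exist.

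The values are FPKM, fragments per kilobase of gene scaled to the mapped fragments of the library, so levels can be set between genes per length. Totals of reads were not in the tables. A gene was tested where at least 3 of the 6 libraries of a comparison reached 1 FPKM, and all 7 genes passed, since each was above 1 FPKM in every library. Fold changes are on the log2(FPKM + 0.03125) scale and a gene was called at an adjusted p under 0.05 (limma, Benjamini-Hochberg over all genes tested). The exact two-sided permutation test of 3 libraries against 3 cannot give a p under 0.1.

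The tissue itself differed widely between Normal and Tumor. All 6 of 6 white adipocyte markers fell in Tumor, from a summed 17460 to 22270 FPKM in Normal to 84.7 to 1312 FPKM, with replicate 1 the highest of the tumors. All 6 of 6 lymphocyte markers fell as well, from a sum of 320 to 400 FPKM to 2.23 to 3.01 FPKM, with Ms4a1, a B cell marker, listed at 0 in all 3 tumors. Called lower too were 4 of 4 brown adipocyte, 4 of 4 endothelial, 4 of 5 fibroblast and 4 of 5 macrophage markers. Over all genes tested, 31.7% were called lower and 28.8% higher. Luminal epithelial markers were called higher for 5 of 6 (sum 440 to 929 FPKM in Normal, 2781 to 4025 FPKM in Tumor), as were all 5 dividing cell markers (11.9 to 30.6 FPKM against 78.0 to 125 FPKM), and of 5 basal epithelial markers 1 was called higher and 2 lower. All 4 skeletal muscle markers rose, from a sum of 5.28 to 63.2 FPKM to 1364 to 3857 FPKM in the 3 tumors labelled as mammary tissue. In such bulk tissue, fewer cells of a type and less RNA per cell cannot be told apart, and the part of these shifts in the values of the 7 genes was not tested.

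Brd2 had the highest mean of the 7 genes in all 4 groups and Cdk7 the lowest, and Cdk9 was next to Brd2 in each. In Normal the order of mean FPKM was Brd2, Cdk9, Brd3, Med12, Cdk8, Med1 and Cdk7, and only Med12 with Cdk8 and Cdk8 with Med1 overlapped among the neighbours of that order. In Tumor, Cdk8 stood above Med1 and Med12 below both, and Brd3 with Cdk8 and Cdk8 with Med1 overlapped. In DMSO the neighbours Cdk9 and Cdk8, Cdk8 and Brd3, and Med12 and Cdk7 overlapped, and in C646 only Brd3 and Cdk8 did. The mean of Brd2 was above that of 88.3% of the genes tested in Normal and 94.0% in C646, while the mean of Cdk7 was above 27.3% and 28.4%.

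**Figure D1:**
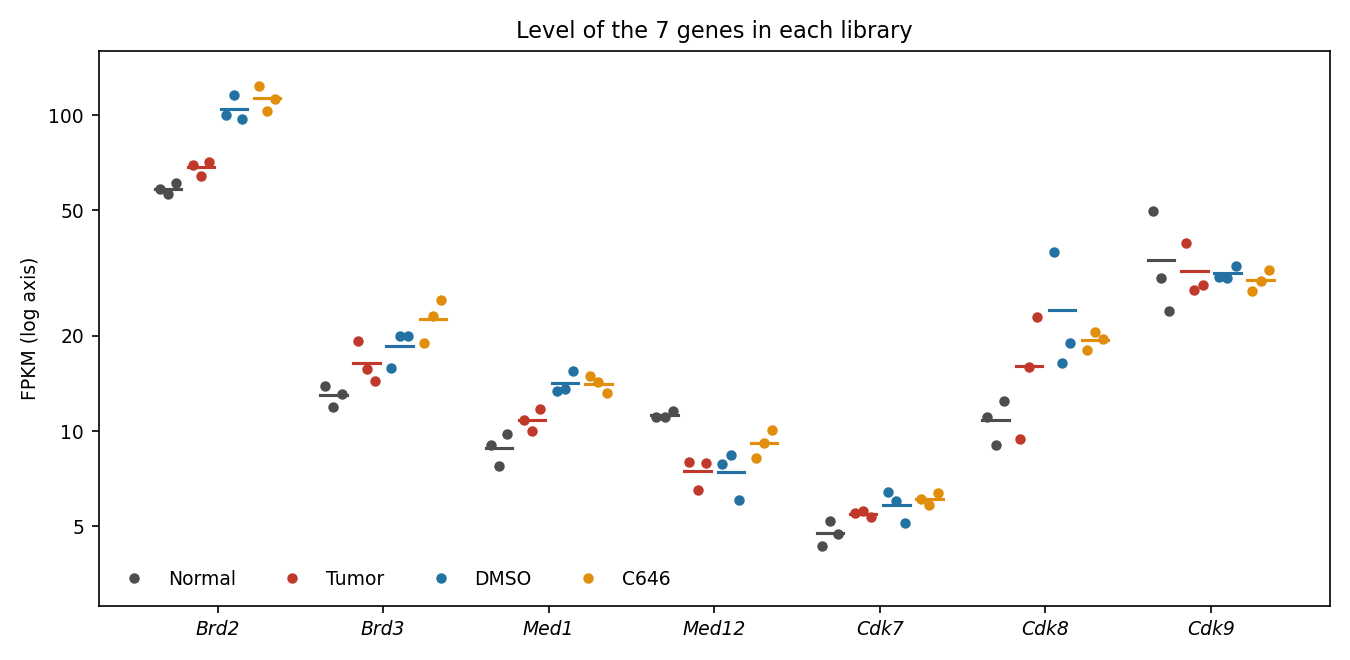
FPKM of the 7 genes (log axis) in each of the 12 libraries, with 1 point for each library and a line at the group mean (n = 3). Med12 is the gene whose 3 Tumor points (6.50 to 7.97 FPKM) all lie below its 3 Normal points (11.1 to 11.6 FPKM), and Cdk8 and Cdk9 show the widest spread within a group.

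Between Normal and Tumor, Med12 was the only 1 of the 7 genes called, and it fell 1.51-fold. No member was called higher. Across all 13031 genes tested, 60.5% were called, 28.8% higher and 31.7% lower, so a single call in 7 is below the share of calls in the tissue as a whole. At an unadjusted p under 0.05 Med12 was again the only 1 of 7, against 64.8% of all genes. For Brd2, Brd3, Med1 and Cdk7 the lowest tumor stood above the highest Normal library, without passing the test, and with Med12 this made 5 of 7 genes whose groups did not overlap, 4 with Tumor above and 1 with Tumor below. Over all genes tested, 68.9% did not overlap, 33.1% with Tumor above and 35.8% with Tumor below.

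Brd2 encodes a BET protein that binds acetylated histone H4 and is expressed in most tissues. The gene lies on GRCm38 chromosome 17 from 34112023 to 34122634, minus strand, with 12 merged exon blocks. It was at 58.5, 56.2 and 60.9 FPKM in Normal replicates 1 to 3 and at 69.6, 64.2 and 71.3 FPKM in Tumor. The tumors were all above the Normal libraries, by a narrow margin. The difference of 0.22 log2 (SE 0.12, 95% interval -0.05 to 0.50) had an adjusted p of 0.136. Under the 16 alternatives it lay between 0.05 and 0.27 log2 and was never called (adjusted p from 0.0799 to 0.744). The exons of Brd2 share 360 bases with those of H2-DMa on the opposite strand and 405 bases with the antisense transcript CR974462.3, and the libraries were made without strand information, so reads from these bases cannot be assigned. H2-DMa, a chaperone of MHC class II loading, was at 28.6 to 37.8 FPKM in Normal and 3.95 to 11.2 FPKM in Tumor, and its part in the Brd2 values was not tested.

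Brd3, a BET protein that also binds the acetylated transcription factor GATA1, spans chromosome 2 from 27445579 to 27507662 on the minus strand. Its only row joins it with Mir7578, whose 82 bases share 1 base with the exons of Brd3. It was at 13.9, 12.0 and 13.1 FPKM in Normal and at 19.2, 15.7 and 14.4 FPKM in Tumor. The lowest tumor stood just above the highest Normal library. The difference was 0.33 log2 (SE 0.16, adjusted p = 0.103).

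Med1 encodes the Mediator subunit that docks nuclear receptors, and it spans chromosome 11 from 98152154 to 98193293, minus strand, in 20 exon blocks. Its levels were 9.04, 7.75 and 9.80 FPKM in Normal and 10.9, 10.02 and 11.7 FPKM in Tumor. All tumors were above all Normal libraries, the lowest tumor only slightly so. The difference was 0.30 log2 (SE 0.15, adjusted p = 0.129). With quantile normalization, under which the median gene moved up by 0.12, Med1 was at 0.44 log2 and was called (adjusted p = 0.0400).

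Med1 stood lower in the list of Mediator core subunits than many of its neighbours in the complex. Of 26 core genes, 24 were tested and 14 were called higher and 0 lower, against 28.8% and 31.7% of all genes tested. The median of the core genes was 0.58 log2 against -0.02 for all genes tested. Med20 and Med28 share their rows with other protein-coding genes and were left out. The largest increases were those of Med31 (13.4 ± 2.07 FPKM in Normal, 35.2 ± 7.0 in Tumor, SD, n = 3, 1.38 log2, adjusted p = 0.000694), Med29 (1.15 log2, adjusted p = 0.00174) and Med21 (0.96 log2, adjusted p = 0.000595), of which Med31 and Med21 are small subunits of the middle of the complex and Med29 of its tail. The 10 core genes that were not called lay between -0.40 log2 for Med14, the scaffold of the complex, and 0.35 log2 for Med26, which joins Mediator to elongation factors. The count of core genes called higher was 9 without Normal replicate 1 and 9 without Normal replicate 3.

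Med12 encodes the subunit that activates cyclin C and CDK8 and is a frequent site of mutation in uterine leiomyoma and breast fibroadenoma. It spans chromosome X from 101274030 to 101297465 on the plus strand, in 43 exon blocks, of which 749 bases are shared with the transcript Gm21986 on the same strand. Cdk8, the kinase of the same module, spans chromosome 5 from 146231230 to 146302874, plus strand, in 13 exon blocks. The bases just before the first annotated start of each are shown because these 2 genes of 1 module gave opposite signs in Tumor, Med12 called and Cdk8 not. They come from the RefSeq promoter windows of GRCm38.p6, and only the part of each window before that start is shown. Capitals mark the motifs found in this part on either strand, the GC box (GGGCGG, or CCGCCC on the other strand) and the E box (CACGTG).
Med12, chrX:101273841-101274029, plus strand: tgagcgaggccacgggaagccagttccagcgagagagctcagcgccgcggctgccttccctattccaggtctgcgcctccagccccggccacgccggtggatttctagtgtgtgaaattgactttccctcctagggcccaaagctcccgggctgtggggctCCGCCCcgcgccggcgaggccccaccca
Cdk8, chr5:146231000-146231229, plus strand: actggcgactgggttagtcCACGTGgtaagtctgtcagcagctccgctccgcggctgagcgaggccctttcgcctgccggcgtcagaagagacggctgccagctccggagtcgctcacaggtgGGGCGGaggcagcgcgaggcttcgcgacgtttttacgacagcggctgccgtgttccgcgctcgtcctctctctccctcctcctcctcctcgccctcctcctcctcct
A GC box was found in at least 1 window of all 7 genes, and in 35.7% of all 32851 RefSeq promoter windows of 300 bases. The E box was in the windows of Cdk7 and Cdk8 and in 7.15% of all windows, and no window of the 7 genes held TATAAA, which 13.6% of all windows did. A match is a string of letters and no binding was measured here.

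Med12 was at 11.1, 11.1 and 11.6 FPKM in Normal and at 7.97, 6.50 and 7.89 FPKM in Tumor. The Normal libraries lay close together, with an SD on the log2 scale that only 2.77% of genes tested were below, and every tumor was below them. Med12 fell by 0.60 on the log2 scale (SE 0.15, 95% interval -0.94 to -0.26, adjusted p = 0.00942), which is 1.51-fold lower with an interval of 1.19-fold to 1.92-fold. It was called in the same direction under all 16 alternatives, with values from -0.65 to -0.44 log2 and adjusted p from 0.00707 to 0.0383. Of all genes tested, 58.6% had a larger absolute change, so the fall of Med12 was of ordinary size in this comparison.

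Cdk8 was at 11.1, 9.01 and 12.5 FPKM in Normal and at 9.41, 15.9 and 23.0 FPKM in Tumor. Tumor replicate 1 lay within the Normal range and the other tumors above it, so the groups overlapped. The difference was 0.49 log2 (SE 0.32, 95% interval -0.26 to 1.24, adjusted p = 0.221). The tumors spread 2.44-fold from the lowest to the highest, more than 85.6% of the genes tested by SD on the log2 scale. Without Tumor replicate 1, Cdk8 was 0.83 log2 higher and was called (adjusted p = 0.0165). That library had the highest white and brown adipocyte, skeletal muscle, luminal epithelial, macrophage, endothelial and fibroblast marker sums of the tumors. Its dividing cell sum was the lowest of the tumors, and its FPKM total the highest (783719). The part of these in the Cdk8 values was not tested.

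In the kinase module, 6 of 7 genes were tested, 2 were called lower and 0 higher, where 31.7% of all genes tested were called lower, and the median was -0.42 log2. With quantile normalization 1 of the 6, Med12, was called lower and the median was -0.0037 log2. Over the 16 alternatives, 1 to 3 genes of the module were called lower and 0 to 1 higher. Beside Med12 the gene called was Cdk19, the paralog that can take the place of CDK8, which fell from 9.21 ± 0.60 to 5.89 ± 1.06 FPKM (SD, n = 3, -0.66 log2, adjusted p = 0.0153). Its call was lost with quantile normalization (-0.42 log2, adjusted p = 0.0597) and without Normal replicate 1 (-0.61 log2, adjusted p = 0.0582). Ccnc, the cyclin of the module, was at -0.36 log2 (adjusted p = 0.126), Med13, which links the module to the core, at -0.48 log2 (adjusted p = 0.0525), and its paralog Med13l at 0.29 log2 (adjusted p = 0.276). Med12l did not pass the filter.

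**Figure D2:**
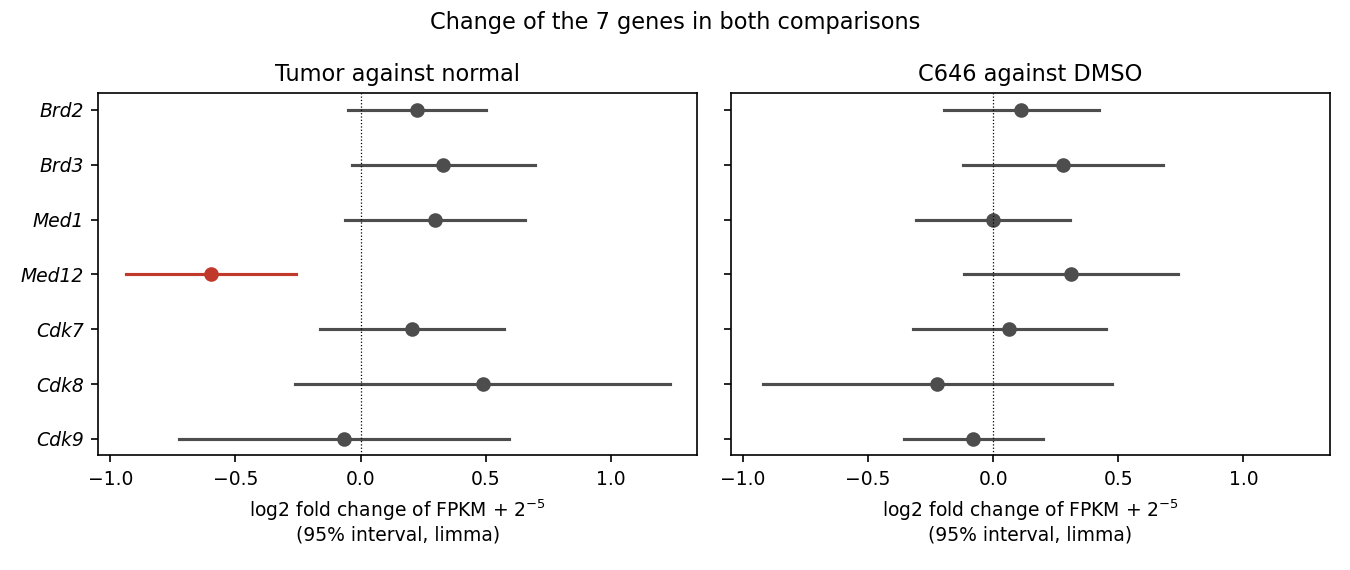
Difference of each of the 7 genes in log2(FPKM + 0.03125), Tumor minus Normal on the left and C646 minus DMSO on the right, with 95% limma intervals (n = 3 libraries in each group). Med12 in Tumor, at -0.60 and in red, is the only interval that passed the adjusted test, and all 7 intervals on the right cross 0.

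Cdk7, the catalytic kinase of TFIIH, spans chromosome 13 from 100702631 to 100730939 on the minus strand. It was at 4.32, 5.21 and 4.73 FPKM in Normal and at 5.49, 5.57 and 5.36 FPKM in Tumor. The tumors lay close together just above the highest Normal library. The difference was 0.21 log2 (SE 0.16, 95% interval -0.16 to 0.57, adjusted p = 0.285). With quantile normalization, Cdk7 was at 0.55 log2 and was called (adjusted p = 0.0202).

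Of the 10 genes of TFIIH and its kinase, all tested, 6 were called higher and 0 lower, against 28.8% and 31.7% of all genes tested. Their median was 0.54 log2. Cdk7 and Ccnh, its cyclin (0.16 log2, adjusted p = 0.372), were among the 4 not called, and Mnat1, the assembly factor of the same trimer, rose by 0.65 log2 (adjusted p = 0.00879). The helicase gene Ercc2 had the largest increase, from 11.4, 11.2 and 8.82 FPKM in Normal to 40.2, 29.0 and 80.2 FPKM in Tumor (2.12 log2, SE 0.35, adjusted p = 0.00167). The Tumor libraries of Ercc2 differed widely but none came near the Normal range, and its row is joined with Mir343. The other helicase gene, Ercc3, rose by 0.91 log2 (adjusted p = 0.00724), and Gtf2h1, a core subunit, by 0.75 log2 (adjusted p = 0.00597).

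Cdk9, the kinase of P-TEFb, spans chromosome 2 from 32705784 to 32713076 on the minus strand. Its only row joins it with Mir2861 and Mir3960, whose 82 and 73 bases lie wholly on exonic bases of Cdk9, and the part of these miRNAs in the value was not tested. It was at 49.8, 30.5 and 24.0 FPKM in Normal and at 39.3, 27.9 and 29.0 FPKM in Tumor. The groups overlapped, and replicate 1 was the highest of its group in both. The difference was -0.07 log2 (SE 0.28, 95% interval -0.72 to 0.59, adjusted p = 0.851), an interval wide enough to hold a 1.65-fold decrease and a 1.51-fold increase. The Normal libraries of Cdk9 had a larger SD on the log2 scale than 93.2% of the genes tested, and without Normal replicate 1 the sign turned (0.23 log2, adjusted p = 0.423).

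Among the 19 genes of P-TEFb, its regulators and the elongation kinases, all tested, 5 were called higher and 4 lower. The shares over all genes tested were 28.8% higher and 31.7% lower, and the median of the list was -0.01 log2. Ccnt1, the main cyclin partner of CDK9, fell from 4.74, 4.66 and 5.64 FPKM in Normal to 0.60, 1.15 and 1.51 FPKM in Tumor (-2.26 log2, SE 0.34, adjusted p = 0.00115). The highest tumor was far below the lowest Normal library. The other cyclin, Ccnt2, was at -0.39 log2 (adjusted p = 0.0964). The kinases Cdk13 (-0.96 log2, adjusted p = 0.00628) and Cdk12 (-0.75 log2, adjusted p = 0.00746), which phosphorylate the polymerase during elongation, fell as well. Hexim2, an inhibitor of P-TEFb, was called lower (-1.07 log2, adjusted p = 0.0126), though not with quantile normalization (-0.46 log2, adjusted p = 0.149) or without Normal replicate 1 (-1.01 log2, adjusted p = 0.0572). Larp7, which stabilises the 7SK RNA that holds P-TEFb inactive, rose (0.77 log2, adjusted p = 0.00235), as did Ell2, a subunit of the super elongation complex (0.93 log2, adjusted p = 0.00948). Eaf2, a partner of the ELL proteins at 0.97 to 1.66 FPKM in Normal and 2.46 to 2.49 FPKM in Tumor, was called (0.82 log2, adjusted p = 0.0339) but lost the call in 9 of 15 alternatives, among them leaving out any 1 of the 6 libraries (adjusted p from 0.0529 to 0.103). The count called higher in this list was 3 without Normal replicate 2 and 2 without Normal replicate 3.

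The polymerase and its pausing factors were counted in the same way, against shares of 28.8% called higher and 31.7% lower among all genes tested. Of 12 RNA polymerase II subunit genes, 9 were called higher and 0 lower, with a median of 0.76 log2, led by Polr2e (1.24 log2, adjusted p = 0.00111), Polr2i (1.18 log2, adjusted p = 0.00198) and Polr2k (1.12 log2, adjusted p = 0.00081). Polr2a, the catalytic subunit that the 3 kinases phosphorylate, was at 0.31 log2 (adjusted p = 0.138). Of 7 pausing and elongation factor genes, 3 were called higher and 0 lower (median 0.41 log2, and 0.23 with quantile normalization), of which Nelfe, an RNA-binding subunit of the pausing factor NELF, was called under all 16 alternatives (1.24 log2, adjusted p = 0.000337). Nelfb (0.57 log2, adjusted p = 0.0310) and Supt5 (0.41 log2, adjusted p = 0.0317) lost their calls without Normal replicate 1, 2 or 3, which left a count of 1 in each case. Over all 16 alternatives Nelfb lost its call in 4 and Supt5 in 8. Among the 8 was quantile normalization (Supt5 0.26 log2, adjusted p = 0.180).

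**Figure D3:**
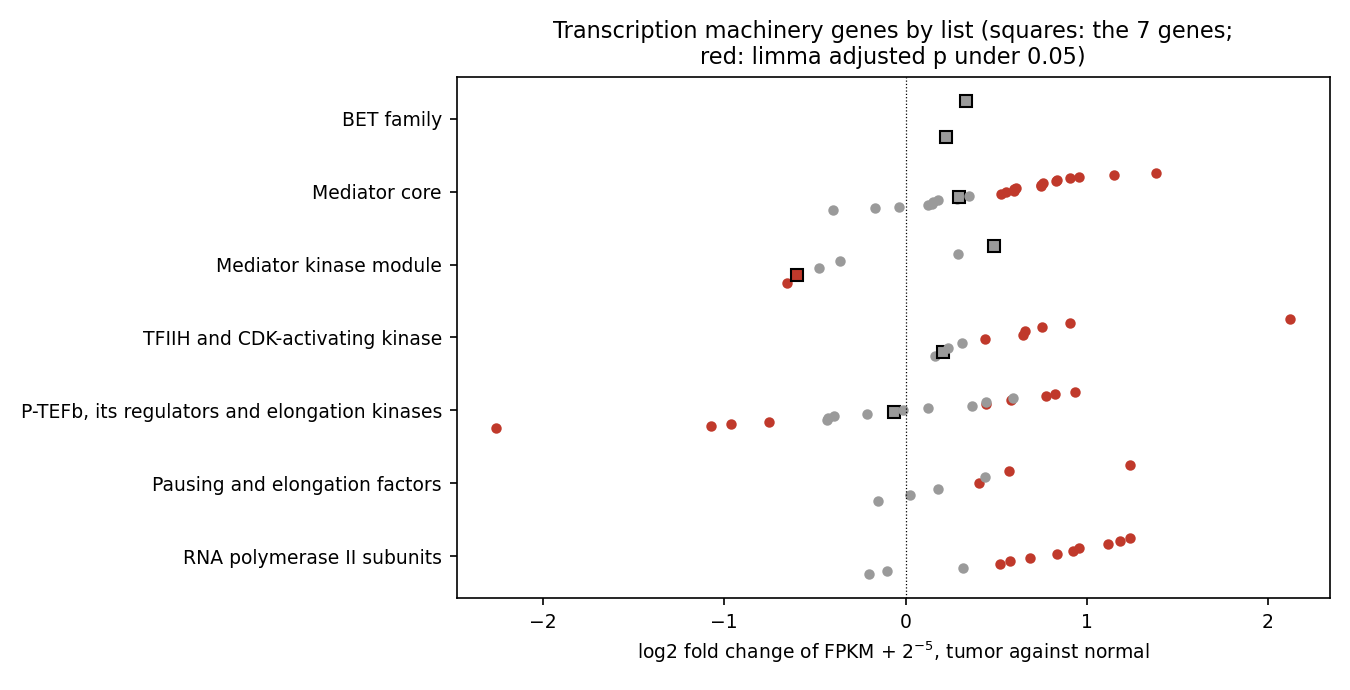
Difference in log2(FPKM + 0.03125), Tumor minus Normal, of each tested gene in 7 lists of transcription machinery (n = 3 libraries in each group), with squares for the 7 genes and red for an adjusted p under 0.05. The list medians run from -0.42 for the Mediator kinase module (-0.0037 with quantile normalization, not plotted) to 0.76 for the RNA polymerase II subunits (0.56 with quantile normalization), and Med12 is the only red square.

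Ratios within a library set each kinase or subunit against a partner, as the difference of the log2 values of the 2 genes. In Tumor the Cdk8 to Cdk19 ratio was 0.63, 1.74 and 1.75 log2, against 0.17, -0.01 and 0.52 log2 in Normal. The groups did not overlap, though tumor replicate 1 lay near the highest Normal library, and the means differed by 1.14 log2 (exact permutation p = 0.1, 0.2 after adjustment over 6 ratios). The Cdk8 to Ccnc ratio went from a mean of 0.86 to 1.70 log2, also with no overlap (exact permutation p = 0.1, adjusted 0.2). The Cdk9 to Ccnt1 ratio was 3.38, 2.70 and 2.08 log2 in Normal and 5.95, 4.56 and 4.24 log2 in Tumor. Every tumor was above every Normal library, with a difference of 2.19 log2 (exact permutation p = 0.1, adjusted 0.2). The Brd2 to Brd3, Med12 to Med13 and Cdk7 to Ccnh ratios overlapped between the groups and differed by -0.11, -0.12 and 0.05 log2 (exact permutation p = 0.6 for each). No ratio could pass the threshold, since 0.1 is the smallest p of this design.

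**Figure D4:**
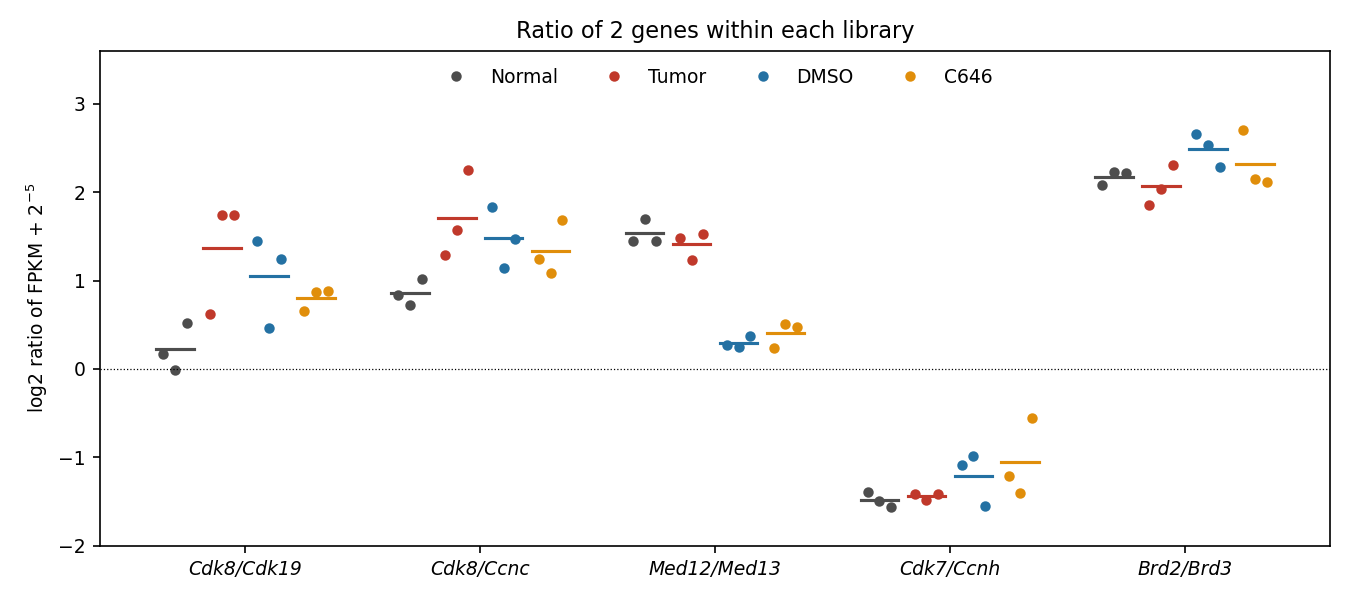
Log2 ratio of pairs of genes within each library, with 1 point for each library and a line at the group mean (n = 3). The Tumor points lie above the Normal points for Cdk8/Cdk19 and Cdk8/Ccnc and overlap with them for Med12/Med13, Cdk7/Ccnh and Brd2/Brd3, and the DMSO and C646 points overlap for all 5 pairs.

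In tumors of mice given C646, none of the 7 genes differed from DMSO by the test, and all 7 overlapped between the groups. Of 12083 genes tested, 0% were called by limma at an adjusted p under 0.05, 3.18% had an unadjusted p under 0.05, and 8.56% did not overlap, 4.04% with C646 above and 4.52% with C646 below. Unadjusted p values of the 7 genes ran from 0.130 for Med12 to 0.991 for Med1. The intervals below show what size of difference these libraries leave possible.

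Skeletal muscle marker RNA was uneven in this comparison, with a sum of 279 FPKM in DMSO replicate 3, 292 in C646 replicate 1 and 270.1 in C646 replicate 3, and under 1 FPKM in the other 3 libraries. White adipocyte markers summed to 9.95 to 47.2 FPKM in DMSO and 58.7 to 302 FPKM in C646. Of the 5 tested, 4 were higher in every C646 library, with a median of 4.34 log2 over the 5. All 5 had an unadjusted p under 0.05 by limma, against 3.18% of all genes tested, with 0 called. The sum of 4 basal epithelial markers was 347 FPKM in DMSO replicate 3. It was 36.3 FPKM in DMSO replicate 1, 48.2 FPKM in DMSO replicate 2 and 59.6 to 65.4 FPKM in C646. The lymphocyte sum was 3.31 to 5.47 FPKM over both groups. The part of these in the member values was not tested.

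Brd2 was at 99.9, 116 and 97.5 FPKM in DMSO and at 123, 103 and 112 FPKM in C646. The groups overlapped through C646 replicates 2 and 3, and the difference was 0.11 log2 (95% interval -0.20 to 0.42, adjusted p = 0.990). All 6 values were above the 64.2 to 71.3 FPKM of the untreated tumors, which come from tables with other rows, so this was not tested. Brd3 was at 15.8, 20.0 and 20.0 FPKM in DMSO and at 19.0, 23.2 and 25.9 FPKM in C646. Only C646 replicate 1 lay within the DMSO range, and the difference was 0.28 log2 (95% interval -0.12 to 0.68, adjusted p = 0.990).

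Med1 was at 13.4, 13.6 and 15.5 FPKM in DMSO and at 14.9, 14.3 and 13.2 FPKM in C646. The ranges nearly coincided, with a difference of -0.0015 log2 and a 95% interval from -0.31 to 0.31. Med12 was at 7.84, 8.41 and 6.03 FPKM in DMSO and at 8.24, 9.16 and 10.1 FPKM in C646. C646 replicate 1 lay within the DMSO range and the other C646 libraries above it. The difference was 0.31 log2 (SE 0.18, 95% interval -0.12 to 0.74, adjusted p = 0.990).

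Cdk8 was at 36.8, 16.5 and 19.0 FPKM in DMSO and at 18.0, 20.5 and 19.6 FPKM in C646. DMSO replicate 1 stood apart from the other 5 libraries, which lay between 16.5 and 20.5 FPKM. The difference was -0.22 log2 (95% interval -0.92 to 0.47, adjusted p = 0.990), and without DMSO replicate 1 the sign turned (0.13 log2, adjusted p = 0.963). The skeletal muscle marker sum of DMSO replicate 1 was 0.38 FPKM. Cdk7 was at 6.40, 6.0 and 5.12 FPKM in DMSO and at 6.09, 5.82 and 6.35 FPKM in C646, with all C646 libraries inside the DMSO range (0.06 log2, 95% interval -0.32 to 0.45). Cdk9 was at 30.8, 30.6 and 33.4 FPKM in DMSO and at 27.7, 29.9 and 32.4 FPKM in C646, a difference of -0.08 log2 with an interval from -0.36 to 0.20.

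The wider lists gave no call either. In C646 against DMSO, 0 genes were called in any of the 7 lists, none had an unadjusted p under 0.05, and the list medians lay between -0.14 log2 for the RNA polymerase II subunits and 0.20 log2 for Brd2 and Brd3, against -0.01 for all genes tested. The 5 ratios that could be formed all overlapped, with exact permutation p from 0.4 to 0.7 and 0.7 for each after adjustment. The Cdk9 to Ccnt1 ratio was not formed, because Ccnt1 shares its row with Kansl2 in these tables.

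The profiles of the 7 genes over all 12 libraries were compared as the root mean square difference of their log2 values, each centred on its own mean, with 0 for identical profiles. Among the 7, Brd2 and Med1 were the closest pair (0.18 log2) and Med12 and Cdk8 the farthest (0.73 log2). Over 10107 genes, the nearest to Brd2 were Trim41, Cbfa2t2 and Msl1 (0.08 to 0.10 log2), and the nearest to Med12 were Phf3, Smarcc2 and Nek9 (0.11 to 0.12 log2). Nearest to Brd3 were Mettl3, Kat5 and Rnf138, nearest to Med1 were Vcp, Srsf11 and Ddx23, and nearest to Cdk7 were the joined row of Fam53b and Mettl10, then Tcf25 and Prosc. Cdk8 had no gene nearer than 0.22 log2 (the joined row of Ppm1h and Mir8104, then Tlr3 and Usp6nl), and Cdk9 none nearer than 0.20 log2 (6330408A02Rik, Capn1 and Rara). A flat profile would lie at 0.26 log2 from Cdk9, 0.16 from Cdk7 and 0.55 from Cdk8. The median distance over the 10107 genes was 0.51 log2 for Cdk9, 0.43 for Cdk7 and 0.63 for Cdk8. Small distances to a gene that changes little are therefore not comparable with those of the others. The libraries share their groups and come from tables with other rows for the treated tumors, so this likeness is a description of 12 values for each gene.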

How the data were processed

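Reads were trimmed by the authors (cutadapt) and aligned to mm10 (TopHat 2.1.1), and FPKM per gene from Cufflinks 2.2.1 were deposited as 1 table per library. The annotation behind the tables is not given in the sources used here. Each Normal or Tumor table held 26220 rows (1837 without a name, left out) and each DMSO or C646 table held 24304 rows, and repeated names were summed. FPKM summed to 526855 to 783719 per library, and mapped reads were not in the tables, so no counting interval is given. Replicates are separate mice or pools. Each comparison was fitted alone with limma 3.58.1 in R 4.3.3 (lmFit, eBayes with trend) on log2(FPKM + 0.03125), and the script was tested on simulated data. A row that joins a gene with other names was used only where those are small RNAs, a choice made after the row names were seen. Gene positions came from GENCODE vM21 (GRCm38), and other steps used Python 3.11.15. Named are the 7 genes, ratio partners, the up to 3 called genes with the largest change per list and direction, and the 3 nearest profiles per gene. Med12l, Med13l, Med14, Med26, Mnat1, Cdk12, Ccnt2, Polr2a and H2-DMa were named outside this rule after their values were seen. The members and lists were chosen with earlier results of these data known. 1 gene of these lists is not reported here. Alternatives varied the pseudocount, filter, scaling, repeated names, variance trend, fit and replicates.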

Additional observations from a re-analysis of the deposited data

How the results depend on the processing

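Of 16 alternatives for Tumor against Normal (17 for C646 against DMSO, 1 of them chosen after seeing the data), Med12 kept its call in Tumor under all 16, and no member was called in C646 under any of 17. With quantile normalization 3 members were called in Tumor, 2 of them higher (Med1 0.44, adjusted p = 0.0400, and Cdk7 0.55, adjusted p = 0.0202), while the median gene moved by 0.12. Without Tumor replicate 1, 2 members were called, 1 higher (Cdk8 0.83, adjusted p = 0.0165). Leaving out 1 library gave 1 to 2 members called (0 to 1 higher), Cdk8 at 0.19 to 0.83, Cdk9 at -0.30 to 0.23 (0.23 without Normal replicate 1, 0.03 without Tumor replicate 2) and 2570 to 4172 genes called lower, with 2686 without Normal replicate 2 and 2570 without Normal replicate 3, where 12077 genes were tested. For C646, 1 gene was called (1 higher) in 1 fit of all 4 groups, and 0 to 12 genes (0 to 12 lower) with 1 library left out, the 12 without DMSO replicate 2. Signs near 0 turned there. Med1 was at 0.0048 with median-ratio scaling, 0.0199 with quantile normalization and -0.0426 to 0.0654 with 1 library left out, Cdk7 at -0.0259 to 0.13, Cdk8 at -0.45 to 0.13, the Cdk8 to Ccnc ratio at -0.32 to 0.0329 and the Cdk7 to Ccnh ratio at -0.0949 to 0.33. With the 3 libraries carrying muscle marker RNA left out (2 DMSO against 1 C646, the lone library being assumed to vary like the others), Brd2 was at -0.0624, Med1 at 0.0845 and Cdk7 at -0.0892 (adjusted p = 0.999 for each). The cause of these shifts was not tested. Of the P-TEFb list, 2 genes were called lower with at least 1 FPKM in all 6 samples, a filter that leaves out Ccnt1 and Hexim2.

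Same-numbered libraries correlated in their deviations from the group mean at -0.04, -0.10 and 0.01 for Normal and Tumor and at 0.17, 0.07 and 0.11 for DMSO and C646, so the numbers were not taken to pair them, and not every library correlated best with its own number. With the replicate number as a block, 3439 genes were called higher and 3827 lower in Tumor, 0 in C646, and Med12 kept its call (-0.60, adjusted p = 0.0273). In the paired form of the ratio test the smallest p is 0.25. The Cdk9 to Ccnt1 ratio was not run for C646. With 3 libraries in a group and no read totals, differences of low genes such as Cdk7 and Ccnt1 rest on FPKM of unknown counting error.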
